A study of Sus scrofa with 18 samples.

Results

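The genes described here encode the enzymes and carriers that take glucose to pyruvate, exchange pyruvate with lactate, and burn pyruvate in the mitochondrion. They were chosen as the rows of the deposited expression table whose name is one of 48 listed symbols, and 44 of these had such a row among 20983 genes. Of the 44, 41 had enough counts to be tested beside 13187 genes in all, while ENO2, SLC16A3 and PDK4 were too low. SLC2A3, PGAM1, SLC16A1 and MPC1 had no row under their name, and rows without a symbol at their positions are described separately.

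The embryos were those of the pig, Sus scrofa, collected with 2, 4 or 8 cells. Oocytes came from ovaries of slaughtered prepubertal gilts and were matured in DMEM medium or in FLI medium. The media differed in their base, which was DMEM in the former and TCM 199 in FLI. PMSG and hCG, EGF, IGF1 and an FGF were added to both, with more IGF1 in DMEM and more FGF in FLI, while LIF, pyruvate, L-glutamine, L-cysteine, gentamycin and bovine serum albumin are listed for FLI only. All embryos of every group were parthenogenetic: the oocytes were activated with ionomycin and a kinase inhibitor, so no embryo carried a paternal genome, and all were then grown in the same embryo medium. Each of the 6 groups, 1 for every stage and medium, held 3 libraries made from pools of embryos, 18 libraries in all. Nothing in the labels ties a pool to its own collection of ovaries, so the p-values measure the spread between pools, which may be technical.

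In the cleaving mammalian embryo pyruvate and lactate are the usual fuels, and use of glucose is known to be low until the later cleavage divisions. Hexokinase and phosphofructokinase control entry into glycolysis, lactate dehydrogenase interconverts pyruvate and lactate, and the pyruvate dehydrogenase complex commits pyruvate to the citrate cycle unless its kinases switch it off. Several of these steps can be run by alternative enzymes encoded by related genes, and in the pig the main activation of the embryo's own genome is known to fall around the 4-cell stage.

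Count totals ranged from 1737985 to 6781185 per library, and a count of 0 allowed a level of up to 0.442 to 1.73 CPM depending on the library, for counting error only, where CPM is the count relative to the scaled total of its library. From 62.8% to 73% of mapped reads fell in genes in the 2-cell and 4-cell libraries and 44.6% to 63.1% in those of the 8-cell stage, apart from FLI replicate 3 with 21.4%. The summed level of 11 oocyte transcripts was 8366 to 9272 CPM at the 2-cell stage and 1615 to 4154 CPM at the 4-cell stage, with replicate 3 highest in both media. At the 8-cell stage it was 3159, 1097 and 851 CPM in DMEM and 1749, 5084 and 405 CPM in FLI. DMEM replicate 1 and FLI replicate 2, with the most oocyte transcript, and FLI replicate 3, with the fewest reads in genes, were the 8-cell libraries that stood apart, and counts for this stage are given with and without them. Markers of cumulus and granulosa cells, 12 of 15 with a row, summed to 3.86 to 25.4 CPM, and markers of blood and other somatic cells, 8 of 11 with a row, to 13.1 to 62.1 CPM.

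Between the 2-cell and the 4-cell stage, 14 of the 41 tested genes rose and 12 fell in DMEM by edgeR's quasi-likelihood test at a Benjamini-Hochberg adjusted p under 0.05. Over all genes tested, 35.2% rose and 28.4% fell in that step, 63.6% in all, so the shares of 34.1% and 29.3% among these genes were close to the background. In FLI 14 rose and 12 fell as well, against 34.6% and 27.2% of all genes, 61.9% together. The median log2 fold change was 0.30 in DMEM and 0.34 in FLI, beside 0.16 and 0.18 over all genes. The 2 media share no library, and 13 genes rose in both, which was 92.9% of the 14 in each medium. A further 11 fell in both, which was 91.7% of the 12 in each. Over all genes tested, those that rose in both media were 90.2% of the DMEM list and 91.6% of the FLI list, and those that fell in both were 85.2% and 88.9%. The summed oocyte transcripts fell in the same step, and their part in these counts was not tested. In pooled embryos, fewer cells that hold a transcript and less of it in each cell cannot be told apart.

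**Figure D1:**
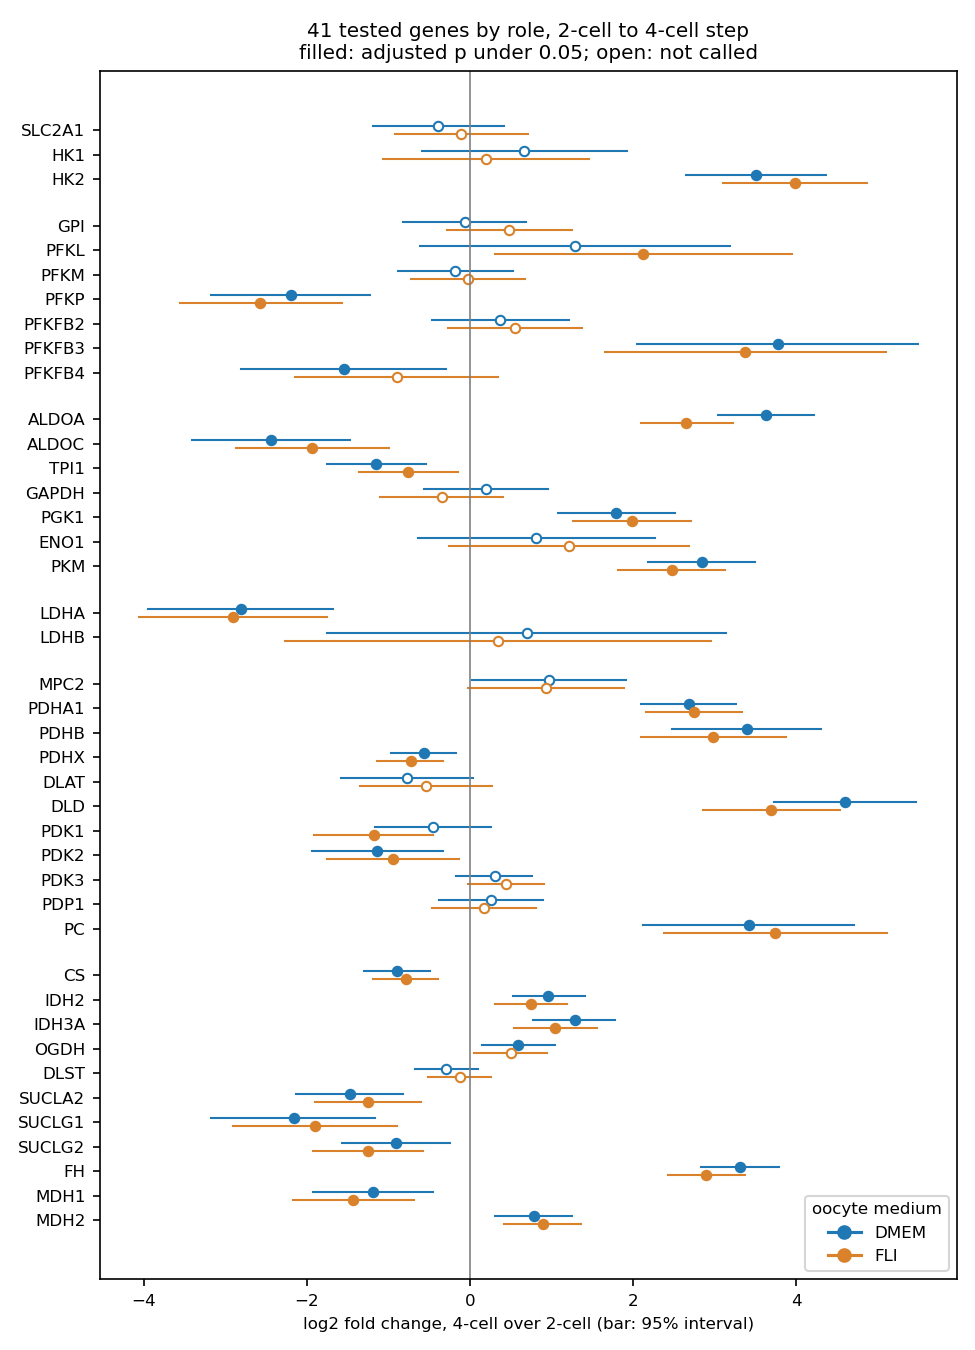
Log2 fold change from the 2-cell to the 4-cell stage (x axis) of the 41 tested genes, grouped by role, in DMEM (blue) and FLI (orange), with 95% intervals. Filled points passed the test at an adjusted p under 0.05; DLD had the highest value in DMEM, 4.59, and LDHA the lowest, -2.81, and no gene passed the test of a difference between the media in this step.

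Glucose enters cells through carriers and is trapped by hexokinases, and of the 3 tested genes of this role with a named row HK2 alone passed in the 2-cell to 4-cell step, in both media. HK2, a hexokinase bound to the outer membrane of mitochondria, lies at chromosome 3, 68153835 to 68231615 of Sscrofa11.1. It measured 42, 36.9 and 36.2 CPM in the 3 DMEM libraries of the 2-cell stage and 364, 348 and 593 CPM in those of the 4-cell stage. In FLI it measured 39.2, 40 and 28.9 CPM and then 467, 569 and 669 CPM. All 4-cell libraries lay above all 2-cell libraries, and the log2 fold change was 3.50 (SE 0.41, adjusted p = 7.7e-07) in DMEM and 3.98 (SE 0.419, adjusted p = 2.08e-07) in FLI. At the 8-cell stage HK2 measured 158, 166 and 165 CPM in DMEM and 161, 454 and 100 CPM in FLI. Every 8-cell library lay below every 4-cell library of its medium, FLI replicate 2 the least, and all lay above the 2-cell stage.

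HK1, the hexokinase of most adult tissues, was low throughout. It measured 2.38, 2.3 and 2.85 CPM in the 2-cell DMEM libraries, 3.75, 3.31 and 4.96 at the 4-cell stage and 4.05, 7.23 and 15.7 at the 8-cell stage. The FLI values were 4.3, 1.34 and 3.63 CPM, then 4.53, 2.11 and 3.78, and then 2.95, 3.94 and 11.1. The 2-cell to 4-cell step did not pass the test in either medium (log2 fold change 0.66, adjusted p = 0.34 in DMEM, and 0.20, adjusted p = 0.788 in FLI).

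SLC2A1, a glucose carrier of the plasma membrane, measured 22.7, 23.2 and 20.5 CPM at the 2-cell stage and 17.3, 14.5 and 18.9 CPM in 4-cell DMEM libraries. Its 8-cell DMEM libraries were lower, at 2.32, 11 and 8.21 CPM. In FLI the values were 16.3, 18.1 and 16.3 CPM, 17.7, 19.9 and 9.46 CPM, and 14.2, 25.4 and 10.3 CPM, and the 3 stages overlapped. Over the whole span from the 2-cell to the 8-cell stage SLC2A1 fell by 1.54 on the log2 scale in DMEM (SE 0.41, adjusted p = 0.00343). The value in FLI was -0.01 (SE 0.389, adjusted p = 0.987), and the highest 8-cell FLI library was replicate 2, at 25.4 CPM. Whether this span differed between the media was not tested, and SLC2A1 did not pass the test of a difference between the media in either step.

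The phosphofructokinases run the committing step of glycolysis, and the PFKFB enzymes make and break the sugar phosphate that stimulates it. PFKP, the platelet form, was the main transcript at the 2-cell stage, with 133, 140 and 146 CPM in DMEM and 165, 158 and 158 CPM in FLI. At the 4-cell stage it measured 27, 25.7 and 38.3 CPM in DMEM and 22.6, 25 and 33.8 CPM in FLI. The stages did not overlap, and PFKP fell by 2.20 on the log2 scale in DMEM (SE 0.466, adjusted p = 0.000515) and by 2.57 in FLI (SE 0.472, adjusted p = 0.000144). The 8-cell libraries of PFKP held 54.4, 21.9 and 13.9 CPM in DMEM and 18.7, 66.4 and 15.1 CPM in FLI. The high values belonged to DMEM replicate 1 and FLI replicate 2, the libraries with the most oocyte transcript.

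PFKFB3, whose enzyme favours making the stimulating sugar phosphate, had 7 counts in the 3 2-cell DMEM libraries (4, 1 and 2), or 0.865, 0.192 and 0.285 CPM. It measured 9.14, 6.36 and 3.07 CPM at the 4-cell stage and 11, 10.7 and 10.7 CPM at the 8-cell stage. In FLI the values were 0.573, 0.84 and 0 CPM, then 8.27, 5.62 and 1.62, and then 4.66, 4.14 and 13.6. Every later library lay above every 2-cell library, and the 2-cell to 4-cell log2 fold change was 3.77 (SE 0.819, adjusted p = 0.000653) in DMEM and 3.37 (SE 0.822, adjusted p = 0.00178) in FLI.

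PFKM, the muscle form, measured 33.3, 31.1 and 34 CPM at the 2-cell stage and 20.9, 27.7 and 38.5 CPM in 4-cell DMEM libraries. In FLI it measured 34.9, 36.3 and 28.7 and then 25.6, 36 and 36.2 CPM. Its 8-cell values were 28.4, 22.6 and 21.1 CPM in DMEM, all below the 2-cell values, and 15.2, 45.1 and 17.3 CPM in FLI. No comparison of stages passed the test with all libraries. Without 8-cell FLI replicate 2, PFKM passed in FLI as lower at the 8-cell stage than at either earlier stage. PFKL, the liver form, measured 0.865 to 2.29 CPM in the 6 2-cell libraries, 4.45, 3.82 and 0.472 CPM in 4-cell DMEM libraries and 9.65, 9.6 and 4.05 CPM in FLI. The 8-cell values of PFKL were 2.89, 5.26 and 8.21 CPM in DMEM and 5.65, 0 and 2.21 CPM in FLI. PFKL passed in FLI (log2 fold change 2.12, adjusted p = 0.0419) and not in DMEM (1.29, adjusted p = 0.219). The FLI value was between 1.82 and 2.22 and not past the test with the replicate block, with library size only, and without FLI 2-cell replicate 1, 2 or 3 or FLI 4-cell replicate 1 or 2. PFKFB4 fell in DMEM, from 5.84, 9.41 and 6.99 CPM to 1.64, 3.56 and 2.36 CPM (by 1.55 on the log2 scale, adjusted p = 0.0313). In FLI it went from 4.87, 5.88 and 6.66 CPM to 3.94, 2.34 and 2.97 CPM, also with no overlap, and did not pass (-0.90, adjusted p = 0.191). The DMEM value was between -1.60 and -1.32 and not past the test without DMEM 2-cell replicate 2 or 3 or DMEM 4-cell replicate 1 or 3. GPI, which turns glucose phosphate into fructose phosphate, and PFKFB2 did not pass.

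From aldolase to pyruvate kinase, where the sugar is split and ATP is gained, ALDOA, PGK1 and PKM rose in both media and ALDOC and TPI1 fell in both. ALDOA, the muscle-type aldolase at chromosome 3, 18253384 to 18260163, measured 5.19, 4.8 and 7.13 CPM and then 82, 72 and 60 CPM in DMEM. In FLI it measured 9.17, 6.38 and 6.86 CPM and then 48.2, 43.1 and 48.7 CPM. No library of the 4-cell stage reached down to the 2-cell values, and ALDOA rose by 3.63 on the log2 scale (SE 0.277, adjusted p = 2.55e-09) in DMEM and by 2.65 (SE 0.269, adjusted p = 1.31e-07) in FLI. At the 8-cell stage ALDOA measured 57.9, 42.7 and 46.8 CPM in DMEM and 26.8, 48.6 and 41.3 CPM in FLI.

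ALDOC, the brain-type aldolase at chromosome 12, 44822780 to 44827597, moved the other way. It measured 35.5, 39.2 and 40.8 CPM and then 6.09, 2.54 and 12.5 CPM in DMEM, and 40.7, 37.8 and 49.8 CPM and then 12.2, 12.2 and 8.92 CPM in FLI. The stages did not overlap in either medium, and ALDOC fell by 2.44 on the log2 scale in DMEM (SE 0.461, adjusted p = 0.000181) and by 1.94 in FLI (SE 0.446, adjusted p = 0.0011). The 8-cell values were 7.53, 3.73 and 2.86 CPM in DMEM and 10.6, 21.7 and 6.64 CPM in FLI, with FLI replicate 2 highest.

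PKM, the pyruvate kinase of embryos and most tissues, measured 7.57, 13.3 and 8.85 CPM at the 2-cell stage and 62.3, 85 and 65.2 CPM in 4-cell DMEM libraries. FLI libraries measured 9.74, 9.07 and 9.08 CPM and then 71.5, 54.3 and 28.7 CPM. Every 4-cell library exceeded every 2-cell library, and PKM changed on the log2 scale by 2.84 (SE 0.314, adjusted p = 3.67e-07) in DMEM and 2.47 (SE 0.314, adjusted p = 2.29e-06) in FLI. PKM stood at the 8-cell stage at 48.1, 58.3 and 68.9 CPM in DMEM and 67.3, 53.8 and 79.6 CPM in FLI. PGK1, the first ATP-making enzyme of the pathway, rose from 10.4 ± 1.48 to 36.3 ± 11.3 CPM in DMEM and from 9.43 ± 2.02 to 37.2 ± 14.7 CPM in FLI (mean ± SD, n = 3), and log2 fold changes were 1.79 (adjusted p = 0.000185) and 1.99 (adjusted p = 8.1e-05).

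TPI1, which interconverts the triose phosphates, fell from 21.8 ± 0.472 to 9.83 ± 3.45 CPM in DMEM (adjusted p = 0.00227) and from 19.2 ± 2.24 to 11.3 ± 0.72 CPM in FLI (adjusted p = 0.0298; n = 3, SD). The FLI call was lost without 2-cell replicate 3 or 4-cell replicate 2 and with no filter on low counts, at log2 fold changes of -0.83 to -0.67. GAPDH, the glyceraldehyde phosphate dehydrogenase often used as a reference transcript, was at 10 to 29.7 CPM in all 18 libraries and passed in neither step.

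ENO1, the enolase of most embryonic tissues, did not pass in the 2-cell to 4-cell step, and its libraries differed within groups. It measured 27.9, 34.4 and 20.5 CPM, then 44.3, 80.2 and 20.8 CPM, and then 28.9, 152 and 166 CPM in DMEM. The values in FLI were 23.2, 21 and 23.4 CPM, then 68.9, 64.1 and 23.2 CPM, and then 148, 11.2 and 119 CPM. The low 4-cell libraries were replicate 3 in both media, and the low 8-cell libraries were DMEM replicate 1 and FLI replicate 2. Those 4 libraries were also the highest of their group in summed oocyte transcripts; the relation was not tested. Pig sequences near-identical to GAPDH, ENO1, PGK1, ALDOA and LDHA could split reads with them, so these levels are uncertain by an unknown amount. Of the 44 rows, 15 overlap another gene of the table. For DLD, PDHA1, PFKP and CS it lies on the opposite strand, and reads of the shared stretch cannot be told apart where strand was not used. The rows of ALDOA, DLAT and ENO2 overlap a gene on the same strand, where counting by strand would not separate the reads either.

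**Figure D2:**
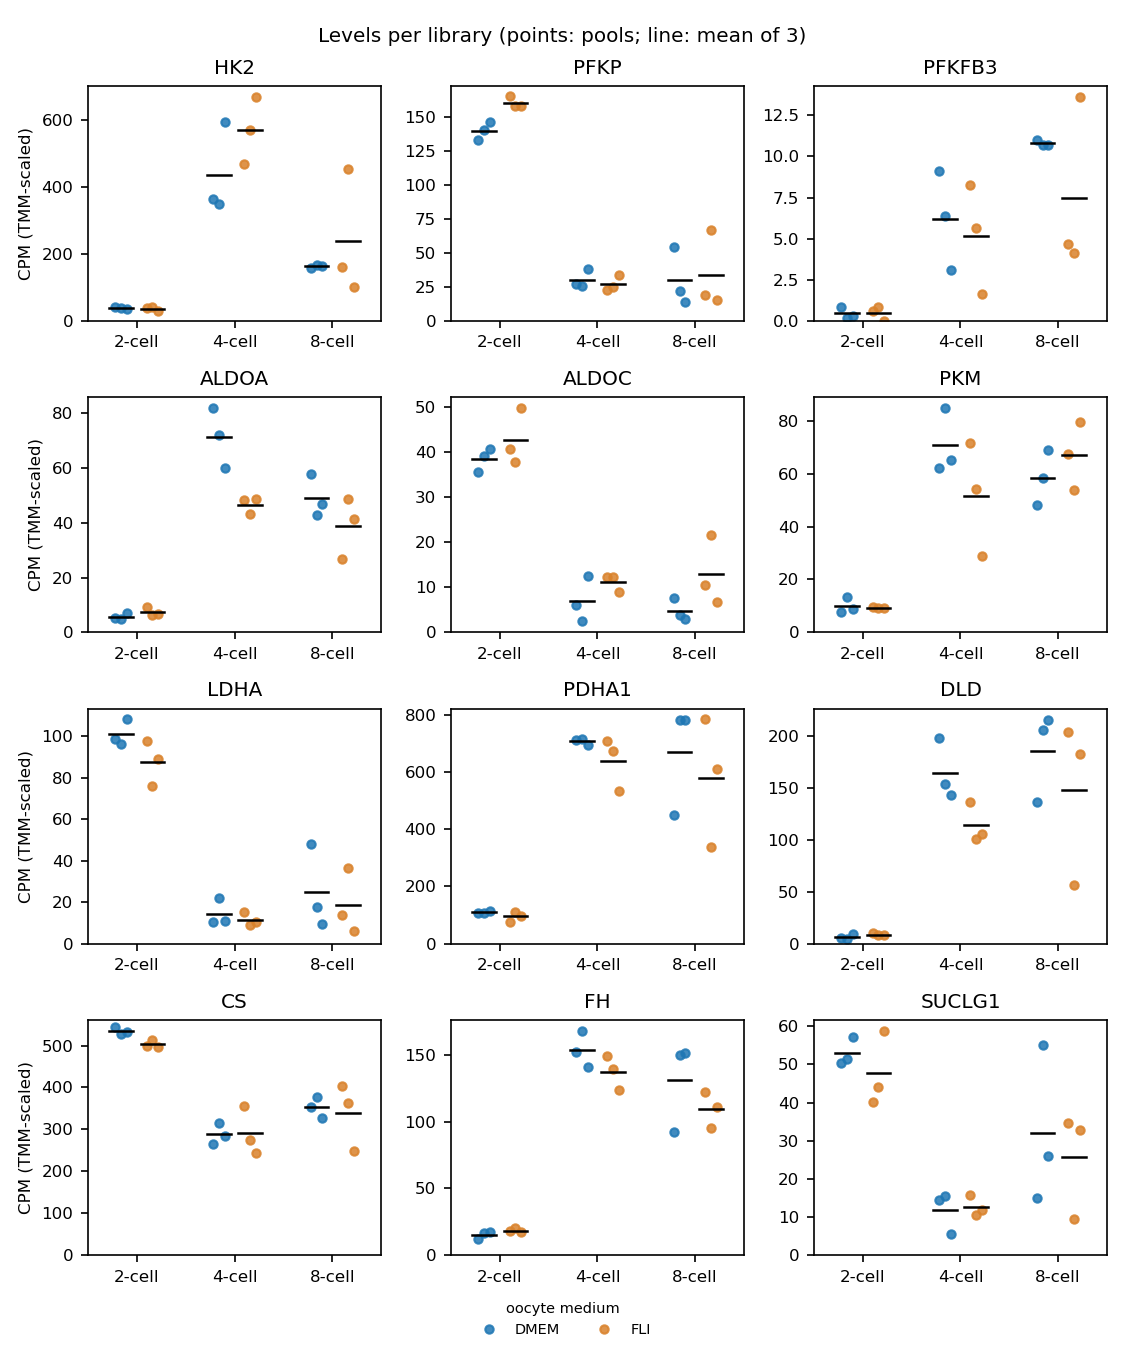
CPM per library (y axis, from 0, a separate scale in each panel) at each of the 3 stages for 12 genes, with DMEM in blue, FLI in orange and a line at the mean of 3. HK2, ALDOA, PKM, PDHA1, DLD and FH stand higher at the 4-cell stage and PFKP, ALDOC, LDHA, CS and SUCLG1 lower; HK2 is lower again at the 8-cell stage in every library, with FLI replicate 2 the highest of them at 454 CPM.

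Lactate dehydrogenase A favours lactate as its product in textbook accounts, and the B form favours pyruvate. LDHA, at chromosome 2, 40814169 to 40826715, measured 98.4, 96.2 and 108 CPM at the 2-cell stage and 10.3, 21.9 and 10.9 CPM in 4-cell DMEM libraries. The FLI libraries gave 97.7, 75.8 and 89 CPM and then 15.2, 9.13 and 10.3 CPM. All 4-cell libraries lay far below all 2-cell libraries, and LDHA fell by 2.81 on the log2 scale in DMEM (SE 0.542, adjusted p = 0.000218) and by 2.91 in FLI (SE 0.548, adjusted p = 0.000176). Its 8-cell libraries measured 48.1, 17.8 and 9.28 CPM in DMEM and 14, 36.4 and 5.9 CPM in FLI, with the 2 high values again in DMEM replicate 1 and FLI replicate 2.

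The row named LDHB spans 1281 bases of chromosome 2, 12988755 to 12990035, and held few counts. It measured 0.649, 1.15 and 0.428 CPM, then 0.234, 0.763 and 2.6 CPM, and then 5.79, 10.5 and 12.1 CPM in DMEM. Its FLI values were 2, 0.168 and 0 CPM, then 1.77, 0 and 0.541 CPM, and then 2.46, 2.17 and 15.5 CPM. The 8-cell libraries lay above the 4-cell libraries in both media, but the 4-cell to 8-cell step did not pass (adjusted p = 0.222 in DMEM and 0.146 in FLI). RefSeq lists 2 LDHB genes, this one and another on chromosome 5, where the table has a row without a symbol. At the 8-cell stage the named row held a mean of 30.7 counts in DMEM and 21 in FLI. The chromosome 5 row held means of 2246 and 2087. Whether reads of the named row came from the other gene was not tested, so the named row may not measure a transcript of its own. In lists of genes that rose or fell, LDHB means the named row on chromosome 2.

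Of the 5 rows without a symbol that overlap the RefSeq gene of a listed symbol on the same genome build, the PGAM1 row is also named by its identifier, and the other 4 rest on position alone. They lie outside the rule by name and outside the counts above, and they were looked for after the data had been seen. All 5 rose from the 2-cell to the 4-cell stage in both media, as did 4183 of the 13187 genes tested. The row at LDHB on chromosome 5 (51810943 to 51831216, plus strand) measured 44.4, 64.3 and 65.9 CPM and then 533, 428 and 405 CPM in DMEM. FLI libraries measured 54.1, 58.8 and 56.9 CPM and then 359, 324 and 198 CPM. The groups did not overlap, and the log2 fold change was 2.97 (SE 0.429, adjusted p = 1.04e-05) in DMEM and 2.38 (SE 0.421, adjusted p = 9.68e-05) in FLI. The 8-cell levels of this row were 424, 793 and 852 CPM in DMEM and 821, 174 and 751 CPM in FLI, with the low values in DMEM replicate 1 and FLI replicate 2.

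SLC16A1, a carrier of lactate and pyruvate across the plasma membrane, was read from the row at chromosome 4, 107534654 to 107547870. It measured 216, 222 and 232 CPM and then 1129, 1142 and 1053 CPM in DMEM. The values in FLI were 195, 215 and 221 CPM and then 1218, 967 and 961 CPM. All 4-cell libraries exceeded all 2-cell libraries, with log2 fold changes of 2.31 (SE 0.225, adjusted p = 7.03e-08) and 2.32 (SE 0.226, adjusted p = 7.52e-08). The 8-cell values were 899, 1243 and 1206 CPM in DMEM and 1198, 595 and 974 CPM in FLI. SLC16A3, the related carrier, reached at most 1.3 CPM in any library.

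PGAM1, the mutase that moves the phosphate of phosphoglycerate, was read from the row at chromosome 14, 108822812 to 108833058. It had 3 counts in the 3 2-cell DMEM libraries and 2 counts in those of FLI, and 2917 and 2329 counts at the 4-cell stage. The ratio of scaled counts was 1316 in DMEM, with a 95% counting interval of 450 to 6387, and 1284 in FLI, with an interval of 355 to 10610. The values were 247, 225 and 231 CPM in 4-cell DMEM libraries and 186, 171 and 177 CPM in FLI, and then 142, 198 and 192 CPM and 151, 142 and 142 CPM at the 8-cell stage. Its rise passed with adjusted p = 8.49e-12 in DMEM and 1.75e-11 in FLI. The PGAM1 row overlaps EXOSC1 on the opposite strand, and whether reads were counted by strand is not given in the sources used here, so reads of both genes cannot be told apart.

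SLC2A3, a glucose carrier with high affinity for glucose, was read from the row at chromosome 5, 62963644 to 63041739. It measured 0, 2.5 and 2 CPM in 2-cell DMEM libraries and 0, 0.168 and 0.404 CPM in FLI. The 4-cell values were 52, 40 and 60.2 CPM in DMEM and 38.6, 52.7 and 62.7 CPM in FLI, and the 8-cell values were 37.1, 89.6 and 56.4 CPM and 42.7, 43.7 and 45 CPM. Scaled counts were 31.8 times higher at the 4-cell than at the 2-cell stage in DMEM (95% counting interval 21.6 to 48.6, adjusted p = 2.36e-07) and 240 times higher in FLI (interval 81.8 to 1167, adjusted p = 2.82e-08).

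MPC1, a subunit of the carrier that brings pyruvate into mitochondria, was read from the row at chromosome 1, 2541383 to 2552858. It measured 7.36, 8.83 and 6.71 CPM and then 33.3, 46.6 and 19.6 CPM in DMEM, and 10.9, 9.74 and 10.9 CPM and then 31.1, 34.2 and 14.6 CPM in FLI. The log2 fold change was 2.12 (SE 0.488, adjusted p = 0.00108) in DMEM and 1.35 (SE 0.478, adjusted p = 0.0211) in FLI. The FLI call was lost without 2-cell replicate 1 (1.27) or 2 (1.29), without 4-cell replicate 1 (1.10) or 2 (1.01), and with limma voom (1.28). At the 8-cell stage MPC1 measured 33.6, 47.3 and 33.9 CPM in DMEM and 37.6, 7.29 and 42.8 CPM in FLI, where replicate 2 lay within the 2-cell range of the media.

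**Figure D3:**
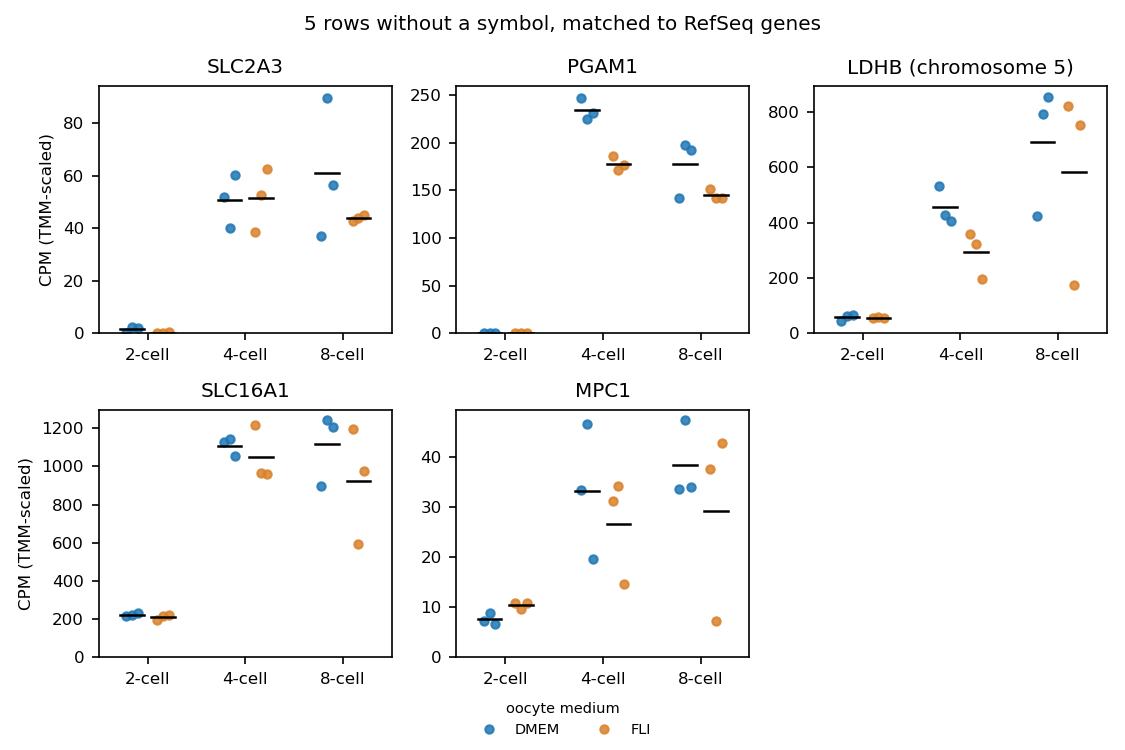
CPM per library (y axis, from 0, a separate scale in each panel) at the 3 stages for the 5 rows without a symbol, named by the RefSeq gene they overlap. PGAM1 is near 0 at the 2-cell stage and at 171 to 247 CPM at the 4-cell stage, and FLI replicate 2 is the low 8-cell library for LDHB, SLC16A1 and MPC1.

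The genes of the pyruvate dehydrogenase complex did not all change in the same direction. Of the 5 subunits, PDHA1, PDHB and DLD rose in both media, PDHX fell in both and DLAT passed in neither. Over all 13187 genes tested, 4183 rose in both media in this step and 3194 fell in both. PDHA1, the X-linked catalytic subunit, measured 109, 107 and 115 CPM and then 710, 716 and 694 CPM in DMEM, and 77.6, 111 and 97.7 CPM and then 709, 674 and 532 CPM in FLI. No values of the 2 stages overlapped, and the log2 fold change was 2.68 (SE 0.279, adjusted p = 1.68e-07) in DMEM and 2.74 (SE 0.28, adjusted p = 1.4e-07) in FLI. At the 8-cell stage PDHA1 measured 451, 781 and 780 CPM in DMEM and 785, 337 and 611 CPM in FLI. PDHB, its catalytic partner, rose from 6.99 ± 1.92 to 73 ± 10.8 CPM in DMEM and from 9.06 ± 2.28 to 72.4 ± 12.4 CPM in FLI (SD, n = 3; adjusted p = 2.4e-06 and 9.12e-06).

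DLD, the dehydrogenase shared by the pyruvate and oxoglutarate complexes, changed most among the 41 in DMEM. It measured 5.41, 4.99 and 9.84 CPM and then 198, 154 and 143 CPM in DMEM. The FLI libraries gave 10, 8.4 and 8.27 CPM and then 137, 101 and 106 CPM. All 4-cell libraries lay above 100 CPM, and the log2 fold change was 4.59 (SE 0.415, adjusted p = 2.51e-08) in DMEM and 3.69 (SE 0.401, adjusted p = 3.14e-07) in FLI. The 8-cell values of DLD were 137, 206 and 216 CPM in DMEM and 204, 56.5 and 183 CPM in FLI, with FLI replicate 2 lowest.

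PDHX, which tethers DLD to the complex, measured 106, 114 and 127 CPM and then 74.3, 92.4 and 67.5 CPM in DMEM, and 131, 139 and 135 CPM and then 89.6, 75.6 and 78.7 CPM in FLI. It fell by 0.57 on the log2 scale in DMEM (SE 0.192, adjusted p = 0.0153) and by 0.73 in FLI (SE 0.192, adjusted p = 0.00309), and the DMEM call was lost without 2-cell replicate 3 or 4-cell replicate 1 or 3, at -0.54 to -0.48. The 8-cell values were 108, 90.7 and 107 CPM in DMEM and 118, 76 and 85.5 CPM in FLI. DLAT, the acetyl transferase core, measured 49.8, 49.4 and 46.7 CPM, then 39.4, 29 and 17 CPM, and then 35.9, 69.5 and 75.7 CPM in DMEM. In FLI its values were 45.8, 44.4 and 57.7 CPM, then 50.8, 27.1 and 23.2 CPM, and then 88.1, 29.5 and 61.2 CPM. The lowest 8-cell values of DLAT were those of DMEM replicate 1 and FLI replicate 2.

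None of the kinases that switch the complex off passed as higher in this step. PDK2 fell in both media, from 30.1 ± 4.4 to 13.7 ± 2.12 CPM in DMEM (adjusted p = 0.0156) and from 26.8 ± 4.16 to 13.9 ± 2.18 CPM in FLI (SD, n = 3; adjusted p = 0.0409). Its DMEM call was lost without 2-cell replicate 2 or 4-cell replicate 3, at -1.02 each, and its FLI call without 2-cell replicate 2 or 3 or 4-cell replicate 2 or 3, at -1.08 to -0.86. PDK1 fell in FLI by 1.18 on the log2 scale (adjusted p = 0.00669), and its value in DMEM was -0.45 (adjusted p = 0.249). PDK3 (0.30 in DMEM and 0.44 in FLI) and the phosphatase PDP1 (0.26 and 0.17), which switches the complex on, did not pass, and PDK4 reached at most 2.95 CPM. PC, which carboxylates pyruvate to oxaloacetate, rose from 1.86 ± 1.36 to 20.9 ± 4.24 CPM in DMEM and from 1.46 ± 0.663 to 19.9 ± 3.81 CPM in FLI (adjusted p = 0.000116 and 7.98e-05). MPC2, the other subunit of the pyruvate carrier, measured 14.7, 15.7 and 17.7 CPM, then 35.2, 37.7 and 21.5 CPM, and then 9.26, 33.8 and 27.9 CPM in DMEM. The FLI values of MPC2 were 10.6, 13.8 and 15.3 CPM, then 31.5, 33.5 and 10.8 CPM, and then 32.4, 11.4 and 27.3 CPM. Its log2 fold changes of 0.97 in DMEM and 0.93 in FLI from the 2-cell to the 4-cell stage did not pass (adjusted p = 0.069 and 0.0845).

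Within the citrate cycle 4 of 11 genes rose in both media (IDH2, IDH3A, FH and MDH2) and 5 fell in both (CS, SUCLA2, SUCLG1, SUCLG2 and MDH1). Over all 13187 genes tested, 4183 rose in both media and 3194 fell in both, so movement in both directions was common. FH, the fumarase at chromosome 10, 12404176 to 12431824, had the smallest p of all 41. It measured 12.1, 16.9 and 17.3 CPM and then 152, 168 and 141 CPM in DMEM, and 17.8, 20 and 17.4 CPM and then 149, 139 and 124 CPM in FLI. The stages were far apart, with log2 fold changes of 3.31 (SE 0.228, adjusted p = 6.86e-10) and 2.89 (SE 0.224, adjusted p = 3.67e-09). The 8-cell values of FH were 92.1, 150 and 151 CPM in DMEM and 122, 95.3 and 111 CPM in FLI.

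IDH3A, the catalytic subunit of the NAD-dependent isocitrate dehydrogenase, measured 92.6, 79.1 and 91.9 CPM and then 199, 241 and 198 CPM in DMEM. Its FLI values were 87.6, 84.7 and 84.1 CPM and then 240, 156 and 132 CPM. The groups did not overlap, and the log2 fold change was 1.28 (SE 0.24, adjusted p = 0.000175) in DMEM and 1.04 (SE 0.24, adjusted p = 0.0011) in FLI. Its 8-cell values were 168, 204 and 187 CPM in DMEM and 225, 116 and 183 CPM in FLI. IDH2, the NADP-dependent mitochondrial form, rose by a log2 fold change of 0.96 in DMEM (adjusted p = 0.000774) and 0.75 in FLI (adjusted p = 0.00568), where the call was lost without 4-cell replicate 3 (0.57).

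CS, the citrate synthase that opens the cycle, fell from 536 ± 8.69 to 288 ± 25.3 CPM in DMEM (adjusted p = 0.000584) and from 504 ± 8.89 to 292 ± 58.2 CPM in FLI (SD, n = 3; adjusted p = 0.00175). The subunits of succinyl-CoA synthetase fell together: SUCLG1, the subunit common to both forms, by 2.16 on the log2 scale in DMEM and by 1.90 in FLI, SUCLA2, of the ATP-making form, by 1.47 and 1.25, and SUCLG2, of the GTP-making form, by 0.91 and 1.25. Their adjusted p-values lay between 0.000531 and 0.0173, and the call of SUCLG2 in DMEM was lost without 2-cell replicate 1 or 4-cell replicate 1, at -0.88 to -0.84.

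The malate dehydrogenases moved apart. MDH1, the cytosolic form, measured 16.4, 19 and 19.1 CPM and then 11, 8.4 and 4.49 CPM in DMEM, and 14.9, 20 and 17.4 CPM and then 6.89, 8.89 and 3.51 CPM in FLI. It fell by 1.19 on the log2 scale in DMEM (SE 0.348, adjusted p = 0.00647) and by 1.43 in FLI (SE 0.354, adjusted p = 0.00201), and its 8-cell values were 20.8, 15.8 and 20.4 CPM in DMEM and 11.8, 7.88 and 8.85 CPM in FLI. MDH2, the mitochondrial form, rose by a log2 fold change of 0.78 in DMEM (adjusted p = 0.0056) and 0.89 in FLI (adjusted p = 0.00244), and the DMEM call was lost without 4-cell replicate 2 (0.47).

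OGDH, the first subunit of the oxoglutarate dehydrogenase complex, measured 37.4, 44.7 and 40.8 CPM and then 68.2, 67.7 and 49.6 CPM in DMEM, and 49.3, 37.5 and 37.5 CPM and then 69.1, 49.1 and 56.8 CPM in FLI. Its rise passed edgeR's test in DMEM (log2 fold change 0.59, adjusted p = 0.0215), and it was 0.50 in FLI (adjusted p = 0.0505). The DMEM call was lost without 2-cell replicate 1 or 3 or 4-cell replicate 1 or 2. It was also lost with library size only and with no filter on low counts (0.38 to 0.58 in all these runs). OGDH at the 8-cell stage measured 35.9, 44.9 and 32.1 CPM in DMEM and 41.5, 42.7 and 37.2 CPM in FLI, below every 4-cell library of the same medium. DLST, the core of that complex, did not pass (-0.29 in DMEM and -0.13 in FLI).

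Levels of different genes were compared in TPM, the deposited unit that takes account of gene length. At the 2-cell stage CS was first with a mean of 294 TPM over the 6 libraries of both media (range 280 to 304), above the SLC16A1 row at 212 (191 to 229). DLST at 198, LDHA at 192 and PFKP at 172 TPM followed, and their ranges overlapped. At the 4-cell stage the SLC16A1 row at 786 (690 to 951) and the row of LDHB on chromosome 5 at 728 (382 to 978) led and overlapped each other, and PDHA1 at 457 (357 to 517), PGAM1 at 265 (226 to 300) and HK2 at 251 TPM (171 to 330) followed, while CS stood lower at 123 TPM (101 to 161). The order at the 8-cell stage began with the row of LDHB on chromosome 5 at 1257 (394 to 1720), SLC16A1 at 755 (504 to 911) and PDHA1 at 431 TPM (267 to 534). HK2 had a mean of 106 TPM there, with a range of 58.8 to 264.

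Among related genes for 1 step, the share of TPM was compared between stages for 9 sets over 2 steps, 18 comparisons in all, by a two-sided exact permutation test that kept the media apart. The smallest p this design allows is 0.005, from 400 permutations. In the 2-cell to 4-cell step the share of ALDOA in ALDOA and ALDOC went from 16.1% to 87.7%, and the share of PFKP among the phosphofructokinases from 91% to 62.4%. The share of HK1 in HK1 and HK2 went from 6.02% to 0.65% and that of SLC2A1 in SLC2A1 and the SLC2A3 row from 98% to 37.5%. All 4 had the smallest p, 0.005 by the exact permutation test (adjusted p = 0.0225). The shares use the same genes and libraries as the fold changes above. There the stages already did not overlap for ALDOA, ALDOC, PFKP, HK2 and the SLC2A3 row, so these p-values are no separate support. The SLC2A3 and MPC1 rows were also looked for after the data had been seen. The share of MPC1 in both pyruvate carrier subunits went from 33.8% to 46.5% (exact permutation adjusted p = 0.045) and was not past the threshold without DMEM 4-cell replicate 1 (a difference of 13.3 percentage points), 2 (11.9) or 3 (13.4) or FLI 4-cell replicate 3 (11.5).

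ALDOA made up 14.8%, 12.7% and 17.2% of the aldolase TPM in the 2-cell DMEM libraries, 94.1%, 97.1% and 85.1% at the 4-cell stage and 90.1%, 93.2% and 95.1% at the 8-cell stage. In FLI its share was 21.1%, 16.7% and 14%, then 82.4%, 80.8% and 86.6%, and then 75.1%, 72.7% and 88.1%. With the row named LDHB, LDHA made up 99% of the lactate dehydrogenase TPM at the 2-cell and 91.3% at the 4-cell stage (exact permutation adjusted p = 0.0788). With the row on chromosome 5 in its place, a choice made after the data had been seen, the share of LDHA was 63.4%, 53.8% and 56% in the 2-cell DMEM libraries and 1.48%, 3.83% and 2.05% at the 4-cell stage. In FLI it was 58.4%, 50.1% and 54.9% and then 3.18%, 2.14% and 3.88%. The 8-cell share of LDHA was 8.12%, 1.71% and 0.842% in DMEM and 1.31%, 14.1% and 0.608% in FLI.

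From the 4-cell to the 8-cell stage the share of HK1 went from 0.65% to 3.92% (exact permutation adjusted p = 0.036), with 8-cell values of 2.09%, 3.49% and 7.34% in DMEM and 1.5%, 0.716% and 8.4% in FLI. The call was lost without any 1 of the 6 4-cell libraries, at differences of 3.2 to 3.31 percentage points beside 3.27 with all, and without the 3 8-cell libraries that stood apart (3.46). No other share passed in this step, and the shares of ENO1 in ENO1 and ENO2, of SUCLA2 in SUCLA2 and SUCLG2 and of SLC16A1 in SLC16A1 and SLC16A3 passed in neither.

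**Figure D4:**
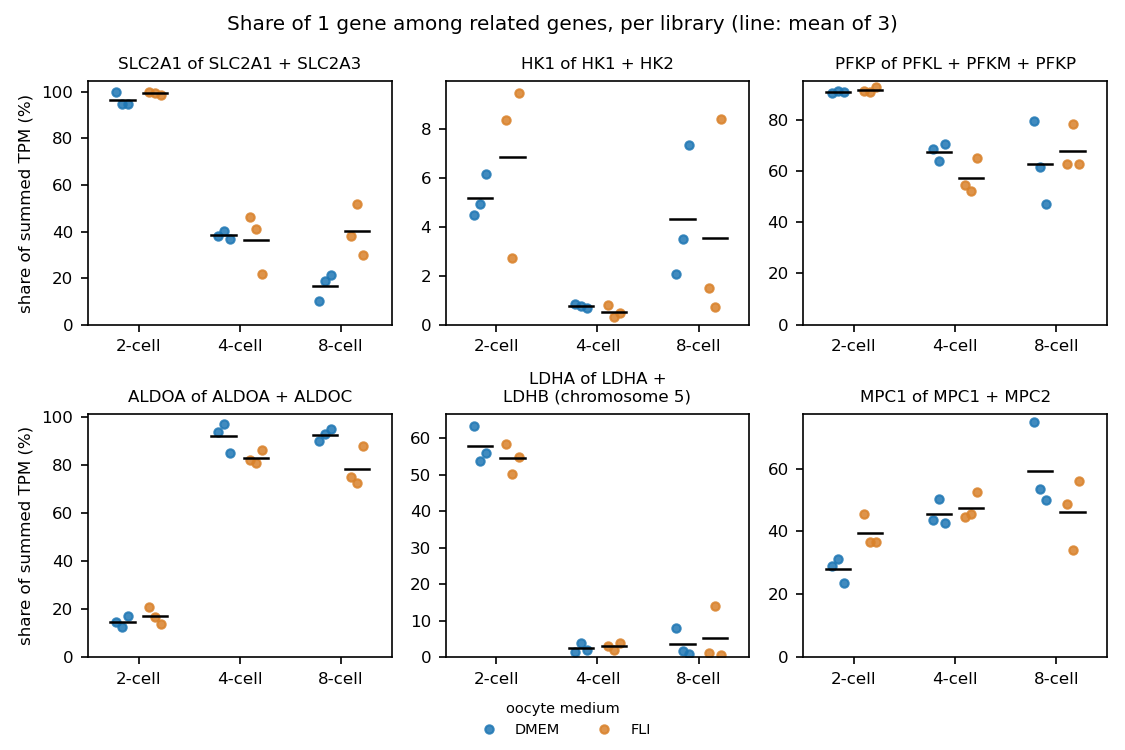
Share of 1 gene in the summed TPM of related genes, in percent (y axis, from 0, a separate scale in each panel), per library at the 3 stages, with DMEM in blue, FLI in orange and a line at the mean of 3. The ALDOA share goes from at most 21.1% at the 2-cell to at least 80.8% at the 4-cell stage, and the LDHA share, taken against the LDHB row of chromosome 5, from at least 50.1% to at most 3.88%.

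From the 4-cell to the 8-cell stage no gene of the 41 passed edgeR's test in either medium. This step shares its 4-cell libraries with the one before. In DMEM none of all genes tested passed either (0%), and 8 of the 41 were under an unadjusted p of 0.05 (HK2, MDH1, OGDH, SUCLG1, DLAT, SLC2A1, LDHB and ALDOA), as were 14.5% of all genes. In FLI 0.804% of all genes rose and 2.24% fell (3.05% in all), and 7 of the 41 were under an unadjusted p of 0.05, HK2 with the smallest, as were 19.9% of all genes. DESeq2 called 2 genes in each medium, HK2 lower in both, MDH1 higher in DMEM and LDHB higher in FLI. By limma voom none was called in DMEM and HK2 was called in FLI. Shares of all genes, here and below, are those of edgeR, and none was counted for DESeq2 or limma voom. The log2 fold change of HK2 was -1.41 in DMEM (SE 0.378, adjusted p = 0.141) and -1.25 in FLI (SE 0.375, adjusted p = 0.0729), and its levels of the 2 stages did not overlap in either medium.

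Without the 3 8-cell libraries that stood apart, 6 of the 41 rose in DMEM (LDHB, SUCLG1, MDH1, ENO1, DLAT and PDHB) and 4 fell (HK2, ALDOA, PFKP and OGDH), against 4.06% and 10% of all genes (14.1% in all). In FLI, where a single 8-cell library remained and was assumed to vary like the others, 5 rose (SUCLG1, ENO1, DLAT, DLD and SUCLG2) and HK2 alone fell, against 3.61% and 5.14% (8.75% in all). HK2 fell there by 1.40 on the log2 scale in DMEM (SE 0.205) and by 1.84 in FLI (SE 0.276). SUCLG1 rose by a log2 fold change of 1.79 in DMEM (SE 0.331) and 1.42 in FLI (SE 0.398), and DLAT by 1.34 (SE 0.284) and 1.36 (SE 0.335). With only FLI replicate 2 left out, 3 genes rose in FLI (LDHB, SUCLG1 and DLAT) and 2 fell (HK2, by 2.18 on the log2 scale, and PFKM), against 4.38% and 11.3% of all genes. The row of LDHB on chromosome 5 also rose without the 3 libraries, by 0.84 in DMEM and 1.47 in FLI. DMEM replicate 1 and FLI replicate 2 stood apart in oocyte transcripts, and FLI replicate 3 in the share of reads in genes. They were picked from these same data, in part by transcripts that fell from the 2-cell to the 4-cell stage. The 4-cell replicate 3 libraries, highest of their groups in the same sum, were kept. The part of the oocyte transcripts, of the reads in genes and of this choice was not tested.

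**Figure D5:**
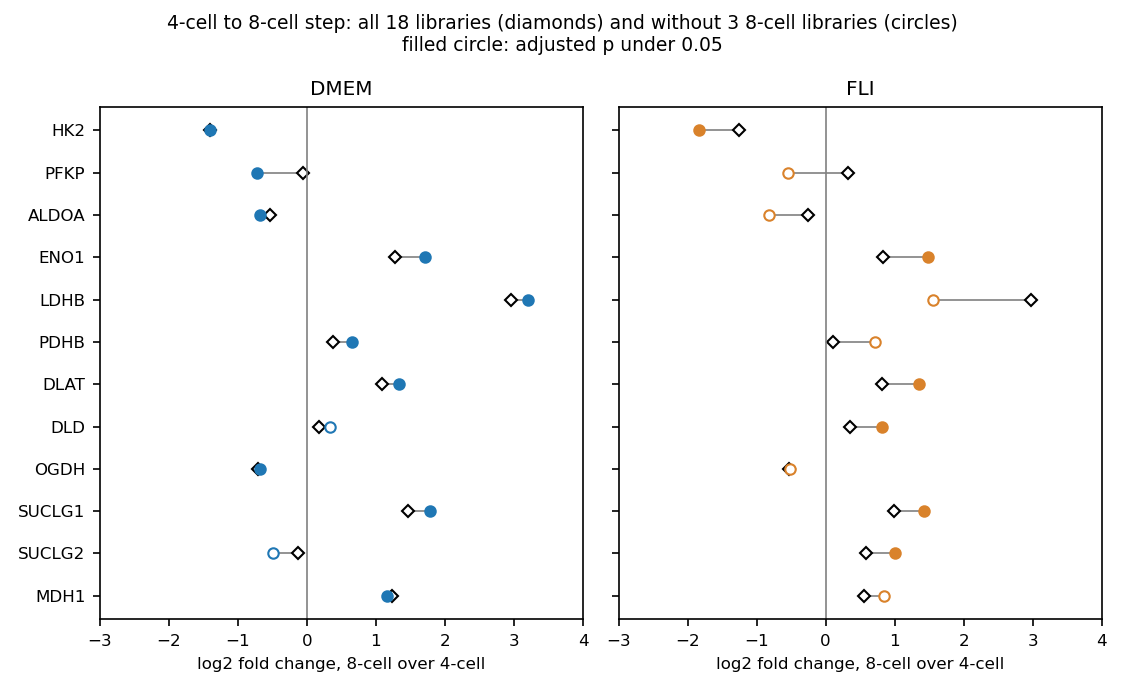
Log2 fold change from the 4-cell to the 8-cell stage (x axis) of the 12 tested genes that passed in either medium once 3 8-cell libraries were left out, with all 18 libraries (diamonds) and without the 3 (circles, filled where the adjusted p was under 0.05). HK2 is lower both ways, at -1.41 and -1.40 in DMEM and -1.25 and -1.84 in FLI, while PFKP in FLI goes from 0.32 to -0.55.

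Over the whole span from the 2-cell to the 8-cell stage, which shares its libraries with both steps, 17 genes rose and 9 fell in DMEM, against 35.9% and 29% of all genes, or 65% in either direction. In FLI 14 rose and 6 fell, against 34.6% and 24%, or 58.6%. CS, LDHA, PFKP and ALDOC fell in both media, but the FLI call of CS was lost with only the groups compared and without the 3 libraries that stood apart (-0.48 to -0.34). The median log2 fold change was 0.31 in DMEM and 0.27 in FLI, beside 0.19 and 0.24 over all genes. The 14 that rose in FLI all rose in DMEM too, which was 100% of the FLI list and 82.4% of the DMEM list. Over all genes tested, those that rose in both media were 88.6% of the FLI list and 85.5% of the DMEM list. The 4 that fell in both were 66.7% of the FLI list and 44.4% of the DMEM list, beside 89.8% and 74.1% over all genes. HK1, IDH2 and PFKL rose in DMEM alone by this test. In FLI the rise of ENO1 was lost under 6 alternatives (1.25 to 2.03), limma voom included. That of the row named LDHB was lost under 4 (1.75 to 2.73) and that of MDH2 under 2 (0.52 to 0.63). The FLI falls of MDH1 (8 alternatives, -0.92 to -0.58) and PDHX (6, -0.56 to -0.21) were lost as well. The DMEM rise of ENO1 was lost under 3 (1.66 to 1.89). The DMEM call of HK1 was lost without 8-cell replicate 3 (1.13), that of IDH2 without 8-cell replicate 2 (0.52), and that of PFKL without any 2-cell replicate or 8-cell replicate 2 or 3 (1.76 to 2.30, limma voom included). The number that fell in FLI was 13 without 8-cell FLI replicate 2, against 30.9% of all genes. Without all 3 libraries that stood apart 18 rose and 11 fell in DMEM, against 37.5% and 30.8% of all genes (68.4% in all), and 15 rose and 4 fell in FLI, against 31.3% and 24.6% (55.9% in all).

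The study set FLI against DMEM, and no gene of the 41 passed edgeR's test between the media. The count was 0 at each single stage, over the 3 stages together, and for the interaction of medium with either step, and DESeq2 and limma voom called none in these comparisons. None of all genes passed at any single stage either (0%). At an unadjusted p under 0.05 there were 0 genes at the 2-cell stage, 1 at the 4-cell stage (ALDOA) and 5 at the 8-cell stage (ALDOC, MDH1, SLC2A1, SUCLA2 and TPI1), beside 2.15%, 2.31% and 7.85% of all genes. Log2 differences, FLI over DMEM, lay between -0.39 and 0.59 at the 2-cell stage, -0.63 and 1.41 at the 4-cell stage and -1.09 and 1.57 at the 8-cell stage. The 95% interval of the difference lay within 2-fold in either direction for 23, 20 and 18 of the 41 genes at the 3 stages, and for 37 of the 41 over the 3 stages together, so differences of 2-fold could not be set aside for the remaining genes at single stages. The interaction with the 2-cell to 4-cell step was under an unadjusted p of 0.05 for ALDOA and with the 4-cell to 8-cell step for SLC2A1, beside 2.56% and 3.07% of all genes. Embryos of 4 cells from FLI were also set against those of 8 cells from DMEM, where 0 of the 41 passed (0% of all genes), 9 had an unadjusted p under 0.05, as did 15.3% of all genes, and DESeq2 called 3, limma voom 1. Without the 3 libraries that stood apart that last comparison had 2 higher (HK2 and ALDOC) and 8 lower, against 10.8% and 5.14% of all genes, and it differs in stage as well as medium.

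Other genes of the same pathways were taken from a list of 69, of which 63 had a row and 48 were tested. In the 2-cell to 4-cell step 17 rose and 11 fell in DMEM and 16 rose and 10 fell in FLI, with medians of 0.52 and 0.65 on the log2 scale. Over all genes 35.2% rose and 28.4% fell in DMEM and 34.6% and 27.2% in FLI, with medians of 0.16 and 0.18. TKT, a transketolase of the pentose phosphate pathway, went from 9.95, 13.4 and 15.6 CPM to 586, 605 and 497 CPM in DMEM (log2 fold change 5.43, SE 0.348, adjusted p = 2.78e-10). PGD, the decarboxylating dehydrogenase of the same pathway, went from 58.8, 59.5 and 59.8 CPM to 21.1, 21.9 and 16.3 CPM (-1.59, SE 0.229, adjusted p = 1.03e-05). LDHC, the lactate dehydrogenase known from germ cells, went from 29.9, 31.3 and 39.1 CPM to 3.05, 3.05 and 7.56 CPM (-2.87, SE 0.46, adjusted p = 3.39e-05). PCK1, which makes phosphoenolpyruvate from oxaloacetate, was at 0.865, 0 and 0.143 CPM in the 2-cell DMEM libraries and at 59.5, 53.7 and 47.7 CPM in the 4-cell ones (adjusted p = 1.16e-09). All 48 lay outside the listed 48 symbols, and the 4 named were those with the smallest p in each direction.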

How the data were processed

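RNA of pooled embryos was made into libraries with a stranded total RNA kit. By the study's methods reads were mapped with bowtie2, values came from Illumina Dragen and genes were compared with DESeq2, on the Sscrofa11.1 build by the submitters' processing notes. Versions, and whether counting used strand, are not stated in these sources. The deposited table gives counts per gene and library, used for all tests, the TPM of the authors, used for shares and order, and the RPKM of the authors, used only to infer mapped reads. Its 18 CPM columns were not used. CPM here are counts over TMM-scaled totals. Low genes were removed with filterByExpr, and 1 edgeR model (4.0.16, R 4.3.3) of the 6 groups was fitted on all 18 libraries, with DESeq2 (1.42.0), limma voom (3.58.1), other scalings, no filter, only the groups compared, a replicate block, leaving out libraries, and for shares TPM + 1 or CPM, as alternatives. The code was tested on simulated data. The main model did not pair libraries by replicate number. Symbols were matched to RefSeq positions: all 44 named rows overlapped their gene.

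Values in every library are given for the 2 genes of each role with the smallest p in DMEM in each step, and for sets whose share passed; the members and lists were chosen with earlier results of these data known. Comparisons of the media used the same model.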

Additional observations from a re-analysis of the deposited data

How the results depend on the processing

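No called fold change of the 41 genes reversed under any alternative run. Of the calls in the 2-cell to 4-cell and 2-cell to 8-cell comparisons, 20 were lost under at least 1 alternative. From the 4-cell to the 8-cell stage, DESeq2 gave 1 higher and 1 lower gene in each medium instead of 0, limma voom and DESeq2 size factors in edgeR each gave 1 lower in FLI, leaving out the 3 libraries that stood apart gave 6 higher and 4 lower in DMEM and 5 higher and 1 lower in FLI, and leaving out 8-cell FLI replicate 2 gave 3 higher and 2 lower in FLI. From the 2-cell to the 8-cell stage in FLI, 3 genes fell with only the groups compared, and 13 without 8-cell FLI replicate 2. For 4-cell FLI against 8-cell DMEM the count was 3 with DESeq2, 1 with limma voom, 1 with no filter, 1 with only the groups compared and 10 without the 3 libraries.

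Differences of TPM shares are in percentage points. In the 2-cell to 4-cell step, SLC16A1 passed with TPM + 1 (0.759), LDHA with TPM + 1 (-11.1) and with the chromosome 5 row, added after seeing the data (-53.3). From the 4-cell to the 8-cell stage, LDHA reversed with that row (1.68), and without the 3 libraries HK1 no longer passed (3.46), ALDOA reversed (0.0922) and PFKP reversed (-5.39). With 1 library left out, the differences ranged in the 2-cell to 4-cell step from 10.6 to 15 for MPC1, from -9.48 to -4.58 for LDHA and from -2.28 to -0.848 for ENO1. ENO1 passed without 2-cell DMEM replicate 3 (-2.24) or 4-cell FLI replicate 1 (-2.28), and LDHA without 4-cell FLI replicate 2 (-9.48). In the 4-cell to 8-cell step they ranged from 2.38 to 3.91 for HK1, from -35.3 (without 8-cell FLI replicate 2, where it passed) to -21.1 for LDHA and from -3.85 to 0.624 for ALDOA, which reversed without 8-cell FLI replicate 1 (0.156) or 2 (0.624).

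Scaling by library size alone moved the median of all genes by -0.17 and -0.13 in the 2-cell to 4-cell step and by 0.12 and 0.16 in the 4-cell to 8-cell step (DMEM and FLI, log2), and 13 genes rose and 14 fell in the former in DMEM. Deviations of libraries of the same number correlated at -0.28 to 0.44 between groups, with both signs. With 3 pools per group these values cannot decide whether libraries of the same number share a collection. With the replicate block 14 rose and 12 fell in DMEM and 13 and 12 in FLI, where PFKL was lost. The 3 shallowest libraries were all of the 8-cell stage.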
